A study of Mus musculus with 34 samples.

Results

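The sodium-coupled sugar and monocarboxylate transporters described here are 6 mouse genes, Slc5a2, Slc5a1, Slc5a10, Slc2a2, Slc5a8 and Slc5a12. They were taken by gene name from an expression table of 23331 genes, and their levels were followed across all 17 groups of 34 bulk RNA-seq samples. All 6 passed the filter on low values. Each group held 2 samples, and no label says that these came from separate animals or cultures, so p-values measure only the spread between samples. The assembloids, built from mouse kidney progenitors expanded in culture, were kept in the stage-based medium v2 and sampled on day (D) 3, 7, 13 and 19, with the D19 samples in sets named r1 and r2. The explants were E12.5 kidneys in culture, sampled at D19 in v2, on the same 4 days as the assembloids in an earlier medium, v1, at D17 in v0 and at D7 in 10% fetal bovine serum (FBS). The uncultured kidneys were taken on embryonic (E) days E12.5 and E15.5 and, after birth, on postnatal (P) days P0, P9 and P45. All cultures carried Hoxb7-venus, a fluorescent reporter of the ureteric bud lineage, whereas the kidneys were wild type, so genotype and culture cannot be told apart. Neither sex nor pooling is stated in the labels.

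The proximal tubule reclaims nearly all filtered glucose and lactate. Sodium-coupled carriers of the SLC5 family in the brush border move the solute into the cell against its gradient, driven by the sodium gradient that the basolateral sodium pump maintains, and the facilitative transporter GLUT2, encoded by Slc2a2, lets glucose leave on the blood side. In the adult mouse kidney SGLT2, encoded by Slc5a2, works in the early part of the tubule and SGLT1, encoded by Slc5a1, in the later straight part. Slc5a10 encodes SGLT5, a carrier of mannose and fructose, while Slc5a8 and Slc5a12 encode the carriers SMCT1 and SMCT2 for lactate and related monocarboxylates.

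In the deposited table Slc5a2 (ENSMUSG00000030781.14) lay on the plus strand of chromosome 7 from 127864829 to 127871603 and Slc5a1 (ENSMUSG00000011034.7) on the plus strand of chromosome 5 from 33261563 to 33320215. Slc5a10 (ENSMUSG00000042371.13) lay on the minus strand of chromosome 11 from 61563607 to 61611653 and Slc2a2 (ENSMUSG00000027690.14) on the plus strand of chromosome 3 from 28752052 to 28785509. Slc5a8 (ENSMUSG00000020062.8) lay on the plus strand of chromosome 10 from 88721854 to 88765378 and Slc5a12 (ENSMUSG00000041644.15) on the plus strand of chromosome 2 from 110427643 to 110478125. The submitters' processing notes name the builds mm39 and mm10, and none of the 6 starts was found in an mm10 annotation. RefSeq promoters on GRCm38.p6 matched 4 of the 6 genes, and Slc5a10 had 2 start sites. The promoters of Slc5a1, Slc2a2 and Slc5a10 are shown because these genes were the 3 that rose together between D7 and D13 in both cultures. Each stretch is the 250 bases before the start site, read in the direction of transcription. They lie at chr5:33103969-33104218 (plus strand), chr3:28697653-28697902 (plus strand) and chr11:61720800-61721049 (minus strand). Capitals mark the recognition hexamer of HNF1, a homeodomain factor of the proximal tubule, found on the opposite strand.
Slc5a1: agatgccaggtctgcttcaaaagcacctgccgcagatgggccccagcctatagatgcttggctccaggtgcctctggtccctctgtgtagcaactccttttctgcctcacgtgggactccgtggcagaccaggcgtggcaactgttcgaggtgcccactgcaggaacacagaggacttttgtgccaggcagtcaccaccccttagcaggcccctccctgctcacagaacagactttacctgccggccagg
Slc2a2: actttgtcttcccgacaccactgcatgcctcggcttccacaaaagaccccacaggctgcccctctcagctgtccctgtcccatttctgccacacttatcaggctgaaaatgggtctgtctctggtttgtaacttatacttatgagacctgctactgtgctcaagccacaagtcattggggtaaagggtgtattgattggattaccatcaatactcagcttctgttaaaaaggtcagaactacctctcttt
Slc5a10: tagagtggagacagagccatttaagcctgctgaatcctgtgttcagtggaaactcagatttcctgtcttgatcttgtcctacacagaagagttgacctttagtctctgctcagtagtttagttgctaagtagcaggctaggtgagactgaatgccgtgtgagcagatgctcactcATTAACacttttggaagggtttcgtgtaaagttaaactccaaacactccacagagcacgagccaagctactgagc
The promoters were searched on both strands over 300 bases, 250 before and 50 after the start, for the HNF1 hexamer GTTAAT, the HNF4 element CAAAGTCCA and the TATA box TATAAA, which did not overlap in these promoters. The HNF1 letters were found in 1 of the 5 member promoters, that of Slc5a10 shown above, with the first base 75 bases before the start. They occur in 7.1% of the 32851 promoters of the same length, the HNF4 letters in 0.475% and the TATA letters in 13.6%. The HNF4 and TATA letters were in none of the 5. These matches describe letters only. Slc5a2 and Slc5a12 are named without a promoter.

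Values are a TMM-normalized signal, in which a gene's level is not divided by its length, so levels are compared between samples and not between genes. The lowest value of a library, 1 step of its scale, was 0.0350 to 0.119, and a value of at most 4 steps is called at the floor. Divided by its step, the total of D19 v2 explant replicate 2 came to 7772347 steps and that of the other libraries to between 15243962 and 28459391. Changes are log2(value + 0.962) differences ± SE from limma, fitted to all 19264 genes kept. Rose, fell, higher and lower are used when the adjusted p was under 0.05 and the log2 change was 1 or more in either direction. Changes of genes near the floor are understated on this scale. In bulk RNA, fewer cells of a type and less RNA per cell cannot be told apart. The proximal tubule carries these genes, and the summed signal of 16 markers of that segment, which include none of the 6, was 413 to 437 in D19 assembloids, 256 and 230 in D19 v2 explants, 472 and 454 in D19 v1 explants, 2914 and 2647 at P0 and 25600 and 25790 at P45. At E12.5 the markers Cyp2e1, Kap, Miox, Slc22a6 and Slc34a1 were at the lowest value in both kidneys. Enterocytes also use SGLT1 and GLUT2, and the 3 of 7 enterocyte markers that had values summed to at most 1.70 in any library.

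**Figure D1:**
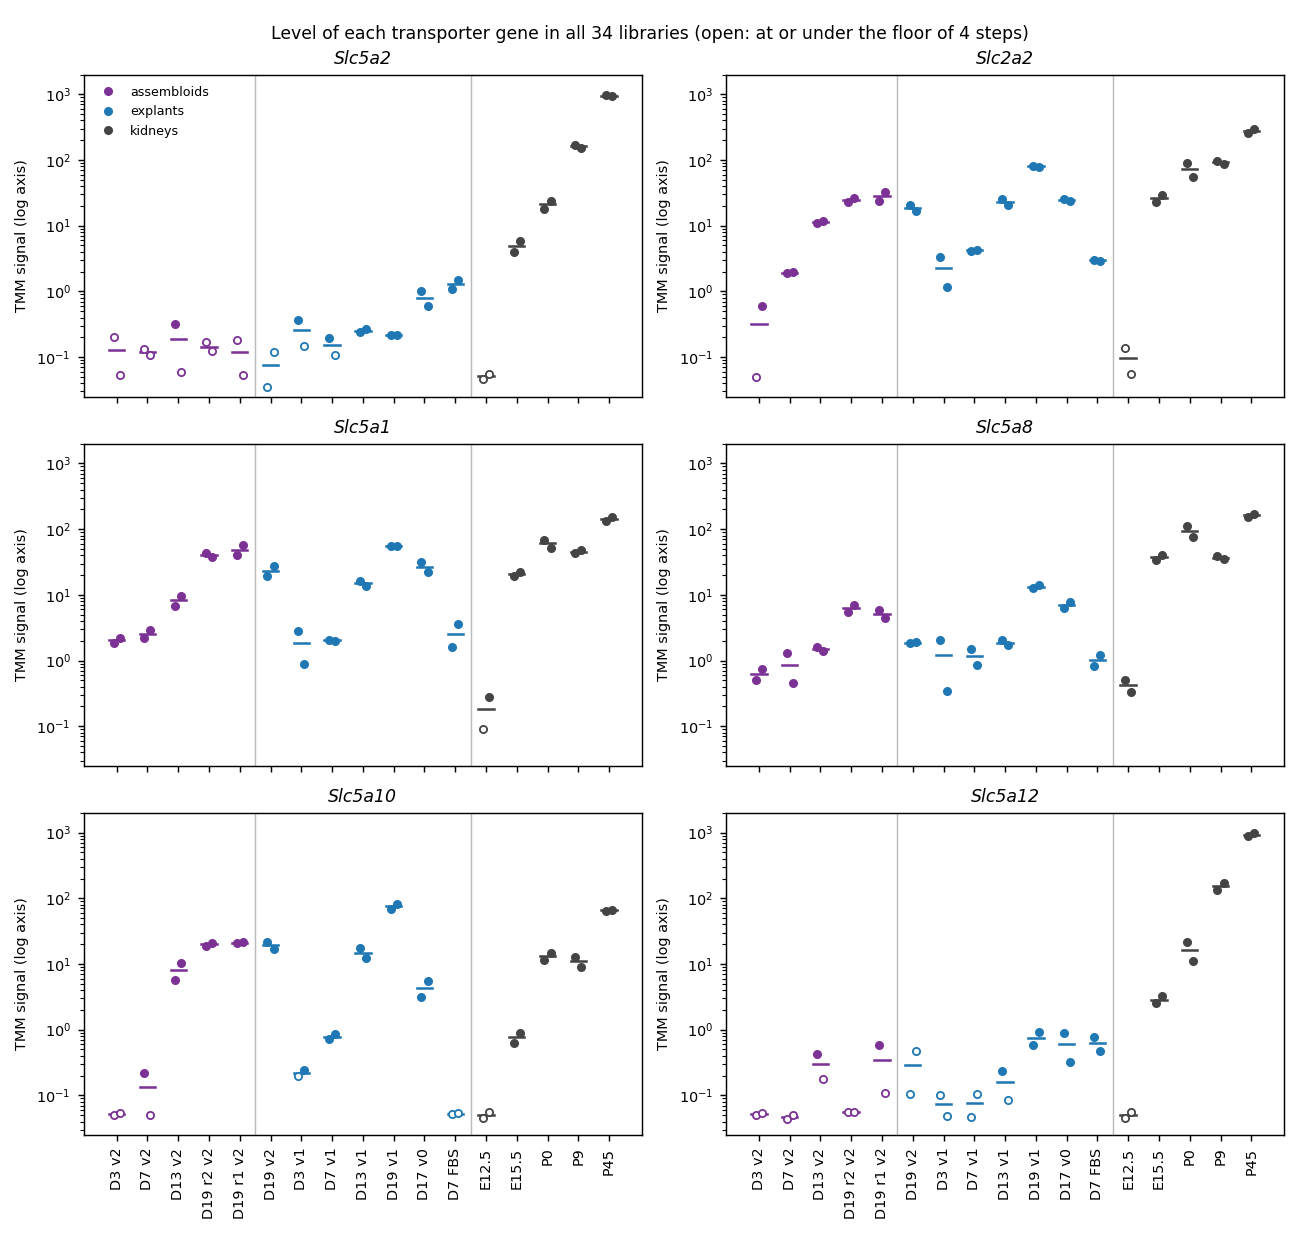
Signal of each transporter gene (log axis) in all 34 libraries, with assembloids, explants and kidneys from left to right; points are libraries, bars are group means and open points are at the floor of 4 steps. Slc5a2 and Slc5a12 reach at most 1.48 and 0.931 in culture, while Slc5a10 reaches 69.7 and 81.8 in D19 v1 explants, above 64.4 and 66.4 at P45.

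Slc5a2, the glucose carrier that takes up the bulk of the filtered sugar, was near the bottom of the scale in every assembloid library. It read 0.200 and 0.0539 at D3, 0.133 and 0.106 at D7, 0.321 and 0.0590 at D13, 0.168 and 0.122 in D19 r2 and 0.185 and 0.0537 in D19 r1, so 9 of the 10 values were at the floor. Both D19 v2 explants stood at their lowest value, 0.0350 and 0.119. The v1 explants gave 0.371 and 0.148 at D3, 0.198 and 0.106 at D7, 0.240 and 0.267 at D13 and 0.217 and 0.214 at D19, with no order by day. In all, 4 of the 14 explants were at the floor, 0.148 at D3 and 0.106 at D7 among them. The highest culture values came from the D7 FBS explants, at 1.09 and 1.48, ahead of 1.02 and 0.597 in D17 v0 explants. The kidneys gave 0.0459 and 0.0557 at E12.5, both at the lowest value, 3.95 and 5.90 at E15.5, 18.1 and 24.0 at P0, 169 and 153 at P9 and 985 and 926 at P45. No 2 of these 5 ages overlapped, and every kidney from E15.5 on lay above every culture.

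Slc5a1, the high-affinity glucose and galactose carrier, was by contrast above the floor in all 24 culture libraries. Assembloids gave 1.85 and 2.21 at D3, 2.21 and 2.91 at D7 and 6.84 and 9.57 at D13, and at D19 they gave 43.1 and 37.2 in r2 and 39.9 and 57.3 in r1. The r2 and r1 ranges overlapped, and both lay above D13. The D19 v2 explants read 19.6 and 27.3. The v1 explants gave 2.84 and 0.885 at D3, 2.03 and 2.01 at D7, 16.4 and 13.7 at D13 and 55.4 and 55.5 at D19. D17 v0 explants, at 31.6 and 22.2, overlapped the D19 v2 explants, and D7 FBS explants gave 1.60 and 3.56. Kidney levels were 0.0919 and 0.278 at E12.5, 19.6 and 22.4 at E15.5, 69.5 and 51.6 at P0, 43.0 and 48.3 at P9 and 134 and 155 at P45. In the order of group means P45 stood first at 145 ± 14.7 (SD, n = 2) without overlap, and the next 4 groups, P0, D19 v1 explants, D19 r1 assembloids and P9, each overlapped the following one.

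Slc5a10, the mannose and fructose carrier, was the only 1 of the 6 with its highest group mean in culture. D19 v1 explants held 69.7 and 81.8, above the P45 kidneys at 64.4 and 66.4 with no overlap; this order was not tested. In assembloids Slc5a10 was at the lowest value in both D3 libraries, at 0.221 and 0.0501 at D7 and at 5.77 and 10.4 at D13. The D19 assembloids read 19.1 and 20.9 in r2 and 20.96 and 21.33 in r1, and the D19 v2 explants, at 21.4 and 16.9, overlapped them. Earlier v1 explants gave 0.199 (at the floor) and 0.246 at D3, 0.709 and 0.846 at D7 and 17.4 and 12.54 at D13. D17 v0 explants had 3.10 and 5.46, and both D7 FBS explants were at their lowest value, 0.0516 and 0.0531. The other kidneys gave the lowest value at E12.5, 0.617 and 0.906 at E15.5, 11.6 and 14.9 at P0 and 12.8 and 9.07 at P9, so P0 and P9 overlapped.

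Slc2a2, the glucose exit on the basolateral side and also a gene of hepatocytes and insulin-producing cells, was present in all explants. In assembloids it read 0.04996 and 0.593 at D3, 1.90 and 1.96 at D7, 10.9 and 11.99 at D13, 22.9 and 26.5 in D19 r2 and 23.7 and 32.4 in D19 r1. D19 v2 explants gave 20.8 and 16.5, below all 4 D19 assembloids. The v1 explants had low values early and their highest at D19, with 3.29 and 1.18 at D3, 4.16 and 4.23 at D7, 25.9 and 20.7 at D13 and 81.6 and 79.4 at D19. D17 v0 explants held 25.7 and 23.8 and D7 FBS explants 3.04 and 2.92. Kidney values were 0.138 and 0.0557 at E12.5, 23.2 and 29.3 at E15.5, 89.0 and 54.6 at P0, 96.1 and 88.0 at P9 and 255 and 299.7 at P45. The D19 v1 explants thus fell within the range of the P0 kidneys. Hepatocyte and pancreas markers with values, 4 of 6, summed to 10.7 to 13.5 in D19 assembloids, against 21.6 and 22.4 at P0, and their part in the Slc2a2 levels was not tested.

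Slc5a8, the high-affinity lactate carrier, known in mouse from the straight part of the tubule, was above the floor in all 34 libraries. Assembloids had 0.4996 and 0.755 at D3, 1.28 and 0.451 at D7, 1.60 and 1.42 at D13, 5.54 and 6.90 in D19 r2 and 5.93 and 4.46 in D19 r1. D19 v2 explants gave 1.86 and 1.90, below every D19 assembloid. In v1 explants Slc5a8 was 2.04 and 0.344 at D3, 1.51 and 0.846 at D7, 2.05 and 1.70 at D13 and 12.7 and 14.02 at D19. D17 v0 explants read 6.21 and 7.69 and D7 FBS explants 0.825 and 1.22. The kidneys were high from E15.5 on, with 0.505 and 0.334 at E12.5, 33.9 and 40.5 at E15.5, 113 and 76.1 at P0, 38.8 and 34.9 at P9 and 153 and 171 at P45. Thyroid cells also use SMCT1, and the 2 of 3 thyroid markers with values summed to 0.539 to 15.3 over all libraries. E15.5 and P9 overlapped, and every kidney from E15.5 on was above every culture.

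Slc5a12, the low-affinity lactate carrier of the cortical proximal tubule, was like Slc5a2 low in culture and increased with kidney age. It was at the floor in 8 of 10 assembloids: at the lowest value in both libraries of D3, of D7 and of D19 r2, at 0.428 and 0.177 at D13 and at 0.576 and 0.108 in D19 r1. Explants gave 0.105 and 0.475 at D19 in v2, and in v1 0.0997 and 0.0492 at D3, 0.0473 and 0.106 at D7, 0.238 and 0.0848 at D13 and 0.578 and 0.931 at D19. Of the 14 explants 7 were at the floor, among them all of D19 in v2 and of D3 and D7 in v1. The value of 0.475 was 4 steps of the library of lowest depth. D17 v0 explants held 0.896 and 0.324 and D7 FBS explants 0.774 and 0.478, both overlapping the D19 v1 explants. In the kidneys the level was at the lowest value at E12.5, 2.52 and 3.24 at E15.5, 21.7 and 11.04 at P0, 135 and 169.8 at P9 and 879 and 974 at P45. As for Slc5a2, no 2 kidney ages overlapped and all kidneys from E15.5 on exceeded all cultures.

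The first question the design allows is how the genes turn on as the kidney grows. Between E12.5 and E15.5, 5 of the 6 rose, where 6.45% of all genes were called higher. The largest fitted changes were those of Slc5a8 (4.78 ± 0.28, adjusted p = 1.05e-13), Slc2a2 (4.68 ± 0.24, adjusted p = 1.2e-14) and Slc5a1 (4.26 ± 0.27, adjusted p = 2.4e-12). This order is not that of the ratios of group means, 88.6 for Slc5a8, 114 for Slc5a1 and 272 for Slc2a2. Slc2a2 was at the floor in both E12.5 kidneys and Slc5a1 in 1 of them. Against the floor at E12.5, the E15.5 level was at least 24.2-fold higher for Slc5a2, at least 14.1-fold for Slc5a12 and at least 3.75-fold for Slc5a10. Slc5a10 did not pass the size threshold (0.76 ± 0.24), and with a pseudocount 0.1 times as large it did (2.52). With a pseudocount 5 times as large the changes of Slc5a2 (0.99) and Slc5a12 (0.66) no longer passed. From E15.5 to P0 all 6 rose, with 4.31% of genes called higher, and Slc5a10 rose most (3.04 ± 0.24, adjusted p = 2.6e-10).

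After birth the genes divided. Between P0 and P9, where 5.79% of genes were called higher and 5.94% lower, 3 of 6 changed: Slc5a12 (3.21 ± 0.26, adjusted p = 1.45e-10) and Slc5a2 (2.89 ± 0.21, adjusted p = 1.89e-11) rose, and Slc5a8 fell by 1.31 ± 0.28 (adjusted p = 0.000396). Slc5a1 (-0.39), Slc5a10 (-0.26) and Slc2a2 (0.39) did not pass. Of 5 straight tubule markers 2 passed in this step, Slc7a13 (-1.47) and Slc22a13 (-1.30), both lower like Slc5a8. From D13 to D19 in v1 explants, where Slc5a8 rose by 2.34, the 5 summed to 49.5 and 47.9, then 41.5 and 39.7. In that step 1 of them was called higher and 0 lower. The part of these markers in the Slc5a8 changes was not tested. Between P9 and P45 all 6 rose, by 1.58 (Slc2a2) to 2.61 (Slc5a12), with 7.77% of genes called higher. All 16 proximal tubule markers rose with them (median 2.42, against -0.01 over all genes). Mitochondrial genes gave 5.06 and 3.66% of the signal at P0, 14.7 and 20.2% at P9 and up to 21.8% at P45, and their part in these differences was not tested.

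These shifts moved the balance between carriers of the same solute. The log2 ratio of Slc5a2 to Slc5a1 within a library was -2.31 and -1.93 at E15.5, -1.94 and -1.10 at P0, 1.98 and 1.66 at P9 and 2.87 and 2.58 at P45. It thus stepped up between P0 and P9, and since the values are not per length, its changes can be read but not its sign. For Slc5a12 over Slc5a8 the ratio was -3.75 and -3.64 at E15.5, -2.38 and -2.78 at P0, 1.79 and 2.28 at P9 and 2.53 and 2.51 at P45. In the D19 v1 explants, where all 4 genes were above the floor, the first ratio was -8.00 and -8.02 and the second -4.46 and -3.91, both below every kidney from E15.5 on. Slc5a2 was there at 6.0 and 4.14 steps, close to the floor, so the first ratio is imprecise. The D7 FBS explants, at -0.55 and -1.26 for the first ratio and -0.09 and -1.35 for the second, had the highest ratios among cultures with both genes above the floor. In 4 of 4 D19 assembloids Slc5a2 was at the floor, and its ratio to Slc5a1 there (-10.06 to -7.75) sets no level.

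**Figure D2:**
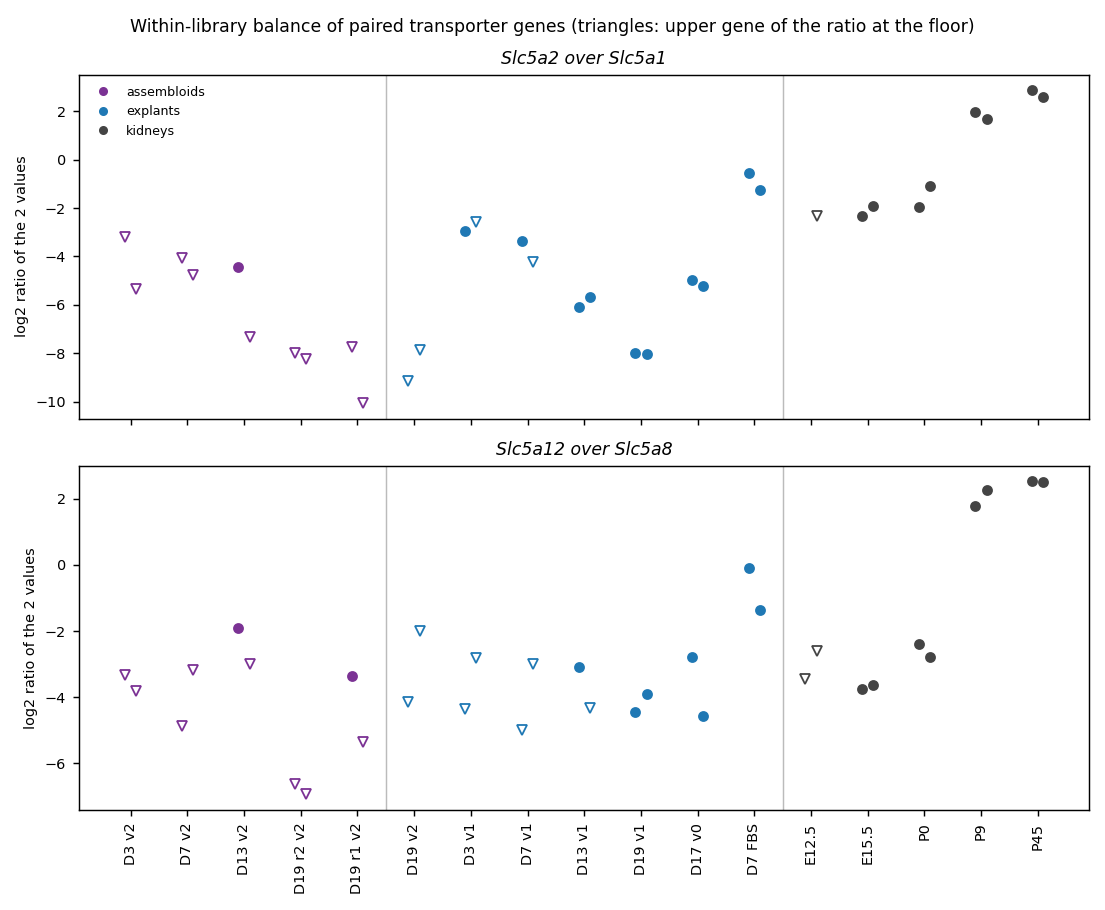
Log2 ratio of Slc5a2 to Slc5a1 (top) and of Slc5a12 to Slc5a8 (bottom) in each library, with assembloids, explants and kidneys from left to right; open triangles have the first-named gene at the floor, and libraries with both genes at the floor are left out. Both ratios step up between P0 and P9. The first reaches 2.87 and 2.58 at P45 against -8.00 and -8.02 in D19 v1 explants, where Slc5a2 is close to the floor.

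The v1 explants show how the genes moved over culture. Between D3 and D7 limma called 0 of the 6 (4.7% of all genes were called in either direction), while 2 had an unadjusted p under 0.05, Slc2a2 (0.77 ± 0.24) and Slc5a10 (0.55 ± 0.24). Without D3 v1 explant replicate 1, which had the higher value of Slc5a1, Slc2a2, Slc5a8, Slc5a2 and Slc5a12 in its group, Slc2a2 rose by 1.27. With a pseudocount 0.1 times as large, Slc5a10 rose by 1.45. Between D7 and D13, with 3.51% of genes called higher, 3 of 6 rose: Slc5a10 (3.18 ± 0.24, adjusted p = 4.93e-10), Slc5a1 (2.42 ± 0.27, adjusted p = 8.36e-07) and Slc2a2 (2.23 ± 0.24, adjusted p = 3.61e-07). In that step 6 of 16 proximal tubule markers, 4 of 5 macrophage markers (median 1.58) and 3 of 6 tubular injury markers rose too. The injury markers summed to 204 and 189 at D7, 906 and 956 at D13 and 2369 and 1864 at D19. Uncultured kidneys reached like sums of these markers, 523 and 467 at P0, 837 and 905 at P9 and 2246 and 2141 at P45. From D13 to D19 the same 3 rose again, by 2.28, 1.82 and 1.76, and Slc5a8 joined them (2.34 ± 0.28, adjusted p = 7.03e-07), so 4 of 6 were called higher, against 2.7% of all genes. Slc5a2 (-0.05) and Slc5a12 (0.61) did not pass in that step; with a pseudocount 0.1 times as large Slc5a12 did (1.76). Of the proximal tubule markers 10 of 16 rose from D13 to D19, led by Slc22a6 (2.87), an organic anion carrier, as did 3 of 6 injury markers and none of the macrophage markers. The part of these markers in the transporter values was not tested.

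Assembloids in v2 gave a like course. Between D3 and D7 only Slc2a2 was called (1.20 ± 0.24, adjusted p = 0.000667), with 4.11% of all genes called higher, and without D3 v2 assembloid replicate 1 its change was 0.89 and did not pass. Hnf4a, a transcription factor of the proximal tubule, read 0.0999 in that replicate and 4.20 in the other D3 assembloid, and its part in the Slc2a2 value was not tested. From D7 to D13, with 1.83% of genes called higher, Slc5a10 (3.0 ± 0.24, adjusted p = 1.69e-09), Slc2a2 (2.10 ± 0.24, adjusted p = 1.34e-06) and Slc5a1 (1.37 ± 0.27, adjusted p = 0.00128) rose, the same 3 genes as in v1 explants. The change of Slc5a1 was 0.81 with a pseudocount 5 times as large and then did not pass. Between D13 and D19, 4 of 6 rose, Slc5a1 (2.30 ± 0.24), Slc5a8 (1.42 ± 0.24), Slc5a10 (1.30 ± 0.20) and Slc2a2 (1.13 ± 0.21), with 3.97% of genes called higher. Without D13 v2 assembloid replicate 1, Slc5a10 changed by 0.92 and did not pass, and with a pseudocount 5 times as large only Slc5a1 passed. In that step 11 of 16 proximal tubule markers, all 3 sodium pump genes and 3 of 6 injury markers rose. From D7 to D13, 5 of 16 proximal tubule markers and 2 of 6 injury markers had risen, and their part in the transporter values was not tested.

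Whether the 2 cultures differed was tested on the change from D3 to D13 and, added after the data were seen, from D3 to D19. To D13, the difference between the assembloid and the v1 explant change passed for 0 of the 6 genes in limma, with 8.89% of all genes called and 1 member, Slc5a1 (-0.98 ± 0.39), under an unadjusted p of 0.05. Without D3 v1 explant replicate 1 the difference for Slc5a1 was -1.51 and passed (adjusted p = 0.00551), the smaller rise being that of assembloids. To D19, 1 of 6 passed, Slc5a10 (-1.61 ± 0.31, adjusted p = 0.000367), the assembloid change being the smaller on this scale, with 4.03% of genes called lower. Slc5a10 was at the lowest value in both D3 assembloids, so its fold rise there is not set. A smaller fold rise in assembloids can therefore not be read from this difference. Slc5a10 did not pass with a pseudocount 0.1 times as large (-0.77), and with one 5 times as large Slc2a2 (-1.02) passed beside it. For Slc2a2 the difference was -0.32 ± 0.32 in the main fit. Its sign turned with the smaller pseudocount (1.09) and without D3 v1 explant replicate 2 (0.17). Without D3 v1 explant replicate 1, Slc5a8 (-1.39) and Slc5a1 (-1.03) passed too. Of the macrophage markers 4 of 5 were lower in the same difference (median -2.31) and of the proximal tubule markers 4 of 16 were higher, and their part in it was not tested. The assembloids were in v2 and these explants in v1, so medium and origin cannot be told apart. Between the D19 r2 and r1 assembloids 0 of 6 passed, with none under an unadjusted p of 0.05 and 0.166% of genes called.

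The media were compared in explants. At D7, v1 against FBS, Slc5a2 was lower in v1 (-1.01 ± 0.21, adjusted p = 0.000329), the only 1 of 6 called, with 5.62% of all genes called lower. The call sat at the threshold: the change was -0.89 without D7 FBS explant replicate 2, -0.95 without D7 v1 explant replicate 2, -0.97 after rescaling to equal totals and -0.30 with a pseudocount 5 times as large, none of which passed. Slc5a10 went the other way, at least 3.71-fold higher in v1 than the floor of the FBS explants, although its fitted change (0.78 ± 0.24) did not pass. With a pseudocount 0.1 times as large, Slc5a10 (2.55) and Slc5a12 (-2.05) passed beside Slc5a2. The summed signal of 5 macrophage markers was 109.5 and 100.5 in v1 against 1617 and 1647 in FBS, and all 5 were lower. Tubular injury markers summed to 204 and 189 in v1 against 2048 and 2365 in FBS, with 2 of 6 higher and 1 lower in v1, and 3 of 16 proximal tubule markers were lower in v1. The part of these markers in the differences was not tested.

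At the late stage, D19 v1 against D17 v0, 3 of 6 were higher in v1, with 2.63% of genes called higher: Slc5a10 (3.90 ± 0.24, adjusted p = 4.08e-12), Slc2a2 (1.66 ± 0.24, adjusted p = 1.26e-05) and Slc5a1 (1.04 ± 0.27, adjusted p = 0.00656). The Slc5a1 call was lost without D17 v0 explant replicate 2 (0.79), after rescaling to equal totals (0.95), after quantile normalization (0.95) and with a pseudocount 0.1 times (1.06, adjusted p = 0.0555) or 5 times (0.94) as large. Slc5a8 (0.86 ± 0.28), Slc5a12 (0.14 ± 0.26) and Slc5a2 (-0.58 ± 0.21) did not pass the size threshold. Slc5a2 was lower in v1 with a pseudocount 0.1 times as large (-1.49). The days differ by group, so day and medium cannot be told apart. At D19, v2 against v1, 4 of 6 were lower in v2, with 1.71% of genes called lower: Slc5a8 (-2.33 ± 0.28, adjusted p = 1.66e-06), Slc2a2 (-2.06 ± 0.24, adjusted p = 1.54e-06), Slc5a10 (-1.94 ± 0.24, adjusted p = 2.28e-06) and Slc5a1 (-1.23 ± 0.27, adjusted p = 0.00399). Slc5a1 did not pass without D19 v2 explant replicate 1 (-0.99) or with a pseudocount 0.1 times as large (-1.26, adjusted p = 0.0517). In the same comparison 5 of 16 proximal tubule markers were lower and none higher (median -0.75, against -0.07 over all genes), with Slc34a1 at -3.11. Pklr, the pyruvate kinase of liver and kidney, was the 1 of 12 sugar and lactate enzymes that passed (-1.46).

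D19 assembloids, as the mean of r2 and r1, were compared with D19 explants in the same medium. Slc5a8 was higher in assembloids (1.22 ± 0.24, adjusted p = 0.000403), the only 1 of 6 called, with 2.15% of all genes called higher. All 4 assembloids lay above both explants, but with a pseudocount 5 times as large the change was 0.65 and did not pass. Slc5a1 changed by 0.89 ± 0.24 (adjusted p = 0.00668) and missed the size threshold. It passed without D19 v2 explant replicate 2, the library of lowest depth (1.12), and without D19 r1 v2 assembloid replicate 1 (1.02), the lowest of its set. Slc2a2 (0.48 ± 0.21), Slc5a10 (0.11 ± 0.20), Slc5a2 (0.07 ± 0.18) and Slc5a12 (-0.12 ± 0.22) did not pass. Of the 16 proximal tubule markers 5 were higher in assembloids, led by Kap (3.24), and all 5 macrophage markers were lower, summing to 3.48 to 5.23 in assembloids, where C1qa and C1qb stood at the lowest value, against 389 and 297 in explants, and the part of either in these values was not tested.

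Against the P0 kidneys, 4 of 6 genes were lower in D19 assembloids, with 6.76% of genes called lower: Slc5a2 (-4.32 ± 0.18, adjusted p = 8.99e-17), Slc5a12 (-3.85 ± 0.22, adjusted p = 5.57e-14), Slc5a8 (-3.82 ± 0.24, adjusted p = 3.52e-13) and Slc2a2 (-1.38 ± 0.21, adjusted p = 4.52e-06). Slc5a12 and Slc5a8 had close fitted changes, but the ratios of means, P0 over assembloids, were 82.3 and 16.5. Slc5a12 was at the floor in both D19 r2 assembloids. Slc5a1 (-0.45 ± 0.24) and Slc5a10 (0.61 ± 0.20) did not pass both thresholds. All 4 assembloids lay above both P0 kidneys for Slc5a10 and their range overlapped that of P0 for Slc5a1. The D19 v2 explants, set against the same P0 samples, had 5 of 6 lower with 9.03% of genes called lower. They gave Slc5a8 at -5.04 ± 0.28, Slc5a2 at -4.39 ± 0.21, Slc5a12 at -3.74 ± 0.26, Slc2a2 at -1.86 ± 0.24 and Slc5a1 at -1.34 ± 0.27, while Slc5a10 (0.50 ± 0.24) did not pass. This order is not that of the ratios of means, P0 over explants, 50.2 for Slc5a8, 274 for Slc5a2 and 56.4 for Slc5a12. Slc5a2 and Slc5a12 were at the floor in both explants, so their ratios set no level. Measured against the floor, Slc5a2 was at least 68.4-fold lower in these explants. Proximal tubule markers were lower in 12 of 16 cases in assembloids (median -2.21) and in 15 of 16 in v2 explants (median -3.46). Tubular injury markers were higher in 4 of 6 cases in assembloids, led by Lcn2 (3.15), and in 5 of 6 in v2 explants. The part of these markers in the transporter values was not tested.

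**Figure D3:**
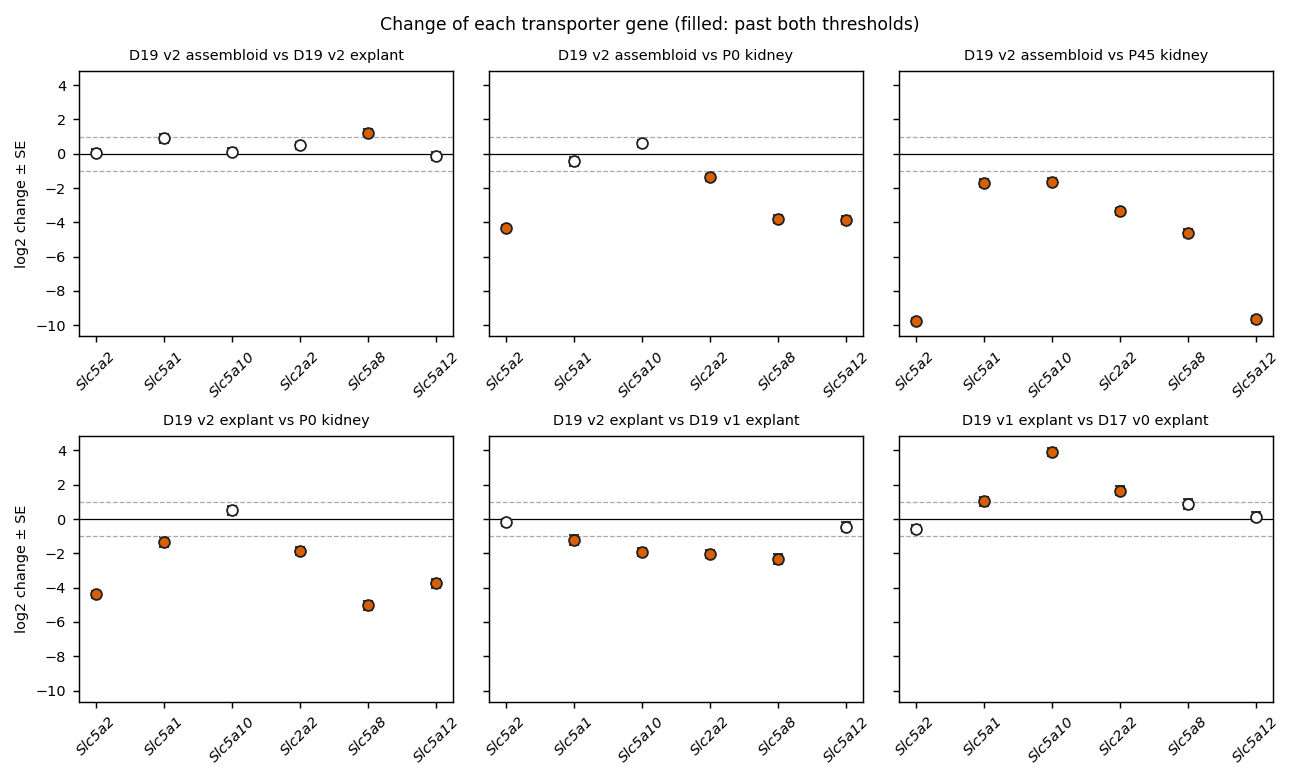
Log2 change ± SE of the 6 transporter genes in 6 comparisons named above each panel, the group named first over the group named second; dashed lines mark a change of 1 in size and filled points passed both thresholds. Against P0 and P45 kidneys Slc5a2 and Slc5a12 lie far below Slc5a1 and Slc5a10, at -9.77 and -9.66 against P45.

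Against P45 all 6 were lower in D19 assembloids, with 16.3% of genes called lower. Slc5a2 (-9.77 ± 0.18, adjusted p = 1.34e-25) and Slc5a12 (-9.66 ± 0.22, adjusted p = 1.77e-23) were lowest, followed by Slc5a8 (-4.62 ± 0.24) and Slc2a2 (-3.36 ± 0.21). The smallest differences were those of Slc5a1 (-1.70 ± 0.24) and Slc5a10 (-1.62 ± 0.20). All 16 proximal tubule markers were lower too (median -6.87). Xist, the RNA of the inactive X chromosome of female cells, read 1440 to 2520 in all 10 assembloids and 0.0698 to 1.1 in the P9 and P45 kidneys, so sex and the comparison with P45 cannot be told apart. In the D19 v1 explants Xist was 1250 in 1 library and 0.0517 in the other, and the same libraries held 55.4 and 55.5 for Slc5a1, 81.6 and 79.4 for Slc2a2 and 69.7 and 81.8 for Slc5a10. The P0 kidneys, also set against the assembloids, read 0.0429 and 340 for Xist. In that order they held 69.5 and 51.6 for Slc5a1 and 89.0 and 54.6 for Slc2a2. Slc5a8 stood at 113 and 76.1 and Slc5a12 at 21.7 and 11.04. Slc5a2 (18.1 and 24.0) and Slc5a10 (11.6 and 14.9) went the other way. The part of sex in these values was not tested.

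Related genes put these changes in context, as lists chosen with earlier results of these data known. In D19 assembloids against P0, 3 of 5 other SLC5 genes tested were lower and none higher (median -1.08, against -0.04 over all genes), Slc5a11, an inositol carrier, at -2.01 and Slc5a9 at -1.54. Among the other facilitative hexose transporters 1 of 10 was higher, Slc2a6 (2.52), and 2 were lower, Slc2a3 (-1.19) and Slc2a1 (-1.08), with a median of 0.08. Of 11 monocarboxylate transporters and chaperones 2 were lower, Slc16a4 (-2.19) and Slc16a12 (-1.29), a creatine carrier. Scaffolds and regulators of the transporters were lower in 5 of 9 cases and higher in none (median -1.06), with the sodium-proton exchanger Slc9a3 at -2.84, Hnf4g at -2.31 and the brush border scaffold Pdzk1 at -2.23. Hnf4a did not pass in this comparison, at 112 to 126 in the 4 assembloids against 236 and 215 at P0. Of 12 enzymes of sugar and lactate metabolism 3 were lower and 1 higher, with Fbp1, of gluconeogenesis, at -2.25 and Ldhd, a lactate dehydrogenase for the D form, at 1.55. Against P45, 9 of these 12 were lower, with G6pc at -6.96 and Pck1 at -6.21, both of gluconeogenesis, and 8 of 9 scaffolds and regulators.

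**Figure D4:**
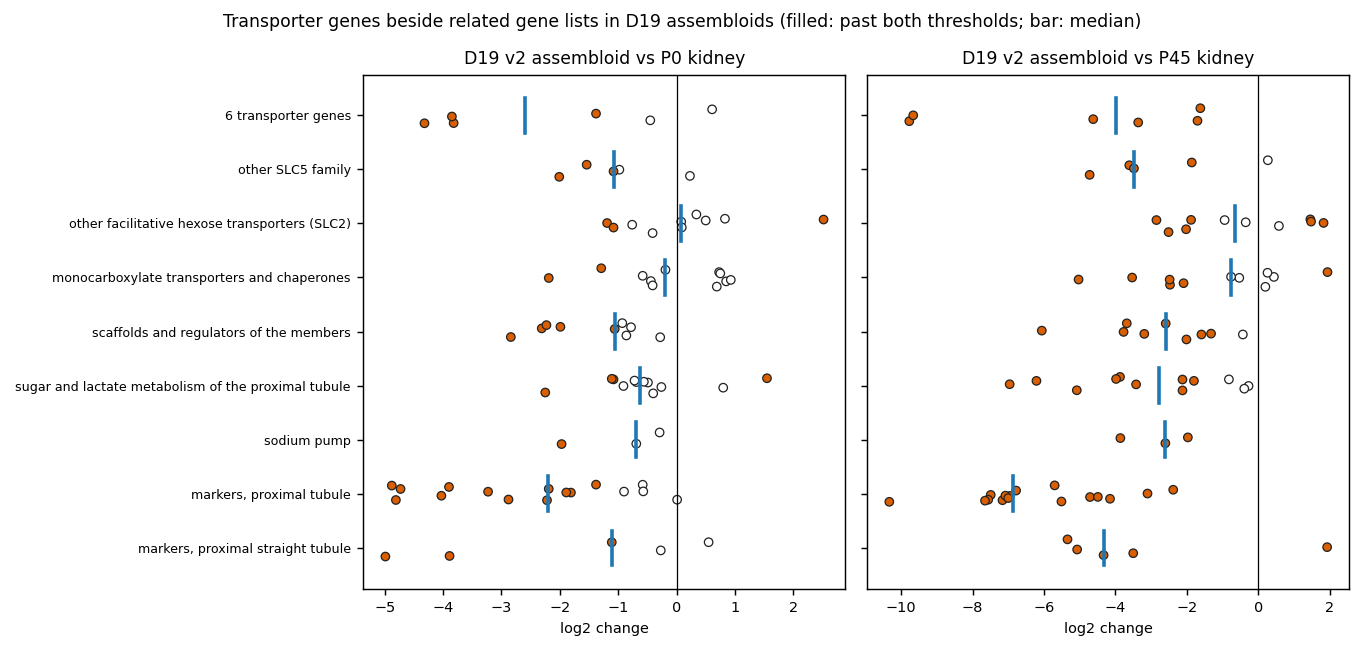
Log2 changes of the 6 transporter genes and of 8 related gene lists in D19 assembloids against P0 (left) and P45 kidneys (right); each point is a gene, filled when past both thresholds, and the bar is the list median. The transporter genes run from -4.32 to 0.61 against P0 and from -9.77 to -1.62 against P45.

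The patterns across the 17 group means of log2 values were alike to differing degrees, given as a description since the groups share the course of development and depth. Slc5a2 and Slc5a12 had a Pearson r that rounds to 1, Slc5a1 and Slc2a2 0.96, Slc5a1 and Slc5a10 0.88, Slc5a10 and Slc2a2 0.86, and Slc5a2 and Slc5a10, the least alike pair, 0.38. Slc5a8 had no single partner, with 0.86 for Slc2a2, 0.83 for each of Slc5a2, Slc5a1 and Slc5a12, and 0.59 for Slc5a10. Culture means of Slc5a2 and Slc5a12 were at most 1.29 and 0.755, so their r rests largely on the kidneys from E15.5 on. From D13 to D19 in v1 explants the mean of Slc5a12 went from 0.161 to 0.755 and that of Slc5a2 from 0.254 to 0.216. Among 12755 genes ranked, those most like Slc5a2 included Lrrc66 (0.987) and the peroxisomal membrane gene Pxmp2 (0.984). Lrrc66 (0.992) was also among those most like Slc5a12, as was Cyp4a10 (0.99). Slc2a2 was most like Cldn2 (0.993), the leaky claudin of the proximal tubule, Vil1 (0.988), the villin of the brush border, and Mep1a (0.985), a brush border protease. For Slc5a1 they were Slc6a13 (0.97), a GABA carrier, Mep1a (0.966) and Vil1 (0.964). The genes most like Slc5a10 included Sult1a1 (0.933) and Pklr (0.926), and Slc5a8 was most like Cyp4a31 (0.988), Atp13a4 (0.98) and Ttc36 (0.98). The values of Cyp4a10 and Cyp4a31 are uncertain, since reads may be split among their close paralogs.

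Some members share their place with other genes, and no source used here says whether reads were counted by strand. Slc5a2 overlaps Rusf1 and Slc5a10 overlaps Grap and Fam83g, all on the opposite strand, and Slc5a1 overlaps Gm15936 on its own strand. Where Slc5a10 rose in v1 explants, by 3.18 to D13 and 2.28 to D19, Fam83g changed by 0.40 and 0.77 and Grap by 0.14 and 0.39, none of which passed. Fam83g did pass with Slc5a10 for P45 over P9 (1.70 and 2.49) and for D19 assembloids over P45 (-1.48 and -1.62). It also passed for E15.5 over E12.5 (1.08), D7 v1 over FBS explants (1.09) and D19 v2 explants over P0 (1.02). Slc5a10 changed in the same direction there without passing. The part of the overlap in the Slc5a10 values was not tested. In D19 assembloids against P0, where Slc5a2 was at -4.32, Rusf1 was at -0.25. Grap was lower there (-3.04), a comparison in which Slc5a10 did not pass.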

How the data were processed

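RNA of 34 mouse samples was sequenced in bulk, per the labels. STAR 2.7.8a, Partek and the builds mm39 and mm10 are named, per the submitters' processing notes; the counter, its filters and its use of strand are not stated there. The authors deposited a TMM-normalized signal per gene, which is not counts. Among low values (20 steps or fewer), between 88.9 and 94.5% per library lay within 0.1 step of a whole multiple, too few to recover reads. Floors and bounds (3 counts above the lowest value, 4 steps per library) cover counting error only.

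Values were tested as log2(value + 0.962), the pseudocount being 1 ppm of the median column total of 962126. Genes with at least that value in 2 samples were kept, 19264 of 23331. limma 3.58.1 in R 4.3.3 fitted 17 group means, with 17 residual degrees of freedom, trend and robust moderation, and Benjamini-Hochberg adjustment over all genes, without a replicate block; it was tested on simulated data. D19 assembloids are the mean of r1 and r2. Samples of a group correlated at 0.9811 to 0.9956 and none lay within sampling noise. Members, lists, tests and comparisons were chosen with earlier results of these data known. Beside the members, up to 3 called genes with the largest change per list and the 3 genes most like each member are named, except some that are not reported here; Hnf4a, Xist and genes overlapping members are given as context, chosen after their values were seen. Alternatives were other pseudocounts, filters and scalings, a replicate block, separate fits, each D19 set alone and each sample left out. The difference between cultures from D3 to D19 was added after the data were seen. The deposited table held 0 columns of other samples.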

Additional observations from a re-analysis of the deposited data

Results flagged for a closer look

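The change of Slc5a10 from D3 to D19 differed between the cultures, by -1.61 ± 0.31 on the log2 scale (v2 assembloids minus v1 explants; limma, adjusted p = 0.000367). Slc5a10 stood at 19.1 to 21.33 in the 4 D19 assembloids and at 69.7 and 81.8 in the D19 v1 explants, without overlap. The difference was -0.77 and did not pass with a pseudocount 0.1 times as large. At D3, Slc5a10 was at the lowest value in both assembloids and at 0.199 and 0.246 in the v1 explants. Its fold rise in assembloids is thus not set, and a smaller fold rise there cannot be read from the difference. Medium and origin differ between these cultures and cannot be told apart.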

How the results depend on the processing

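Of 1098 member values under settings other than leaving out a sample, 1060 kept direction and call, 16 lost the call, 15 gained it and 7 changed sign. With the pseudocount 5 times as large, the number of members called was 3 for E15.5 over E12.5, 0 for D7 v1 over FBS explants, 0 for D7 over D3 assembloids, 1 for D19 over D13 assembloids 0 for D19 assembloids over v2 explants and 2 for the difference between cultures to D19. With it 0.1 times as large, 1 was called for D7 over D3 v1 explants 3 for v1 over FBS explants and 0 for the difference to D19. With no minimum size the counts were 1 for D7 over D3 v1 explants, 2 for v1 over FBS explants, 5 for D19 v1 over D17 v0 explants and 2 for D19 assembloids over v2 explants. Equal totals gave 0 for v1 over FBS explants, and r1 alone gave 2 for D19 assembloids over v2 explants. The cause was not tested.

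Every sign change was of a value that had not passed. For D7 over D3 assembloids Slc5a2 was at 0.03 with the pseudocount 0.1 times as large and at 0.00 after quantile normalization. With r1 alone Slc5a12 was at 0.03 for D19 over D13 assembloids and at 0.05 for D19 assembloids over v2 explants. In the difference between cultures to D13 Slc5a10 was at 0.18 with the smaller pseudocount and Slc2a2 at -0.34 with the larger. In that to D19 Slc2a2 was at 1.09 with the smaller.

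Leaving out 1 sample at a time gave counts of 0 to 1 for D7 over D3 v1 explants, v1 over FBS explants, D7 over D3 assembloids and the difference between cultures to D13, and of 1 to 3 for that to D19. They were 2 to 3 for D19 v1 over D17 v0 explants, 3 to 4 for D19 v2 over v1 explants and for D19 over D13 assembloids, and 1 to 2 for D19 assembloids over v2 explants. Ranges that crossed or touched 0 were, for D7 over D3 v1 explants, -0.26 to 0.00 (Slc5a2), -0.35 to 0.69 (Slc5a1), -0.51 to 0.70 (Slc5a8) and -0.04 to 0.04 (Slc5a12). For v1 over FBS explants they were -0.60 to 0.22 (Slc5a1) and -0.13 to 0.33 (Slc5a8), and for D19 v1 over D17 v0 explants -0.12 to 0.41 (Slc5a12). For D7 over D3 assembloids they were -0.10 to 0.09 (Slc5a2), 0.00 to 0.22 (Slc5a10) and -0.16 to 0.50 (Slc5a8). Slc5a2 ranged from -0.08 to 0.25 for D13 over D7 and from -0.23 to 0.10 for D19 over D13 assembloids, where Slc5a12 ranged from -0.28 to 0.00. For r2 over r1 the ranges were -0.05 to 0.12 (Slc5a2), -0.51 to 0.01 (Slc5a1) and -0.38 to 0.06 (Slc2a2). For D19 assembloids over v2 explants they were -0.05 to 0.27 (Slc5a10) and -0.33 to 0.10 (Slc5a12), and for the difference between cultures to D13 -0.09 to 0.24 (Slc5a2), -0.19 to 0.80 (Slc2a2) and -0.47 to 0.73 (Slc5a8). To D19 they were -0.08 to 0.19 (Slc5a2), -1.03 to 0.01 (Slc5a1) and -0.81 to 0.17 (Slc2a2). A group left with 1 sample was assumed to vary like the others.

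Deviations of samples with the same number correlated at -0.21 to 0.21 over 136 pairs of groups (median 0.01), 11 of them over 0.1. No pairing common to all groups was seen. These pairs mix all ages and cultures, so they cannot decide whether the numbers pair samples within some of the groups. With the replicate block the count of members called was the same in all 20 comparisons, 4 for D19 assembloids over P0 for instance. Equal totals shifted the median of all genes to 0.48 for D19 assembloids over P45, with 5287 genes higher and 1742 lower against 2790 and 3147 as deposited, to -0.33 for P45 over P9 (737 and 2468 against 1496 and 1317), to -0.20 for P9 over P0 (734 and 1719 against 1115 and 1144) and to -0.10 for D19 over D13 v1 explants (428 and 677 against 520 and 501). The calls of the 6 genes in these comparisons were the same. Members under the filter in fits of only the compared samples could not be fitted. Of the listed genes, 11 had no value used here. Values of 4 steps or fewer set no level.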
